A study of Mus musculus with 6 samples.

Results

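The Rab genes encode small GTPases that direct traffic between the membrane compartments of a cell. Every row of the count table whose mouse symbol is Rab followed by a number, with an optional letter and digits, was taken, which gave 59 of 27179 gene numbers. RNA came from postnatal day 2 C57BL/6 mice of genotype Cxcl12-dsred/+, which carry a red fluorescent reporter at 1 allele of Cxcl12, the gene of a chemokine that keeps blood stem cells in the marrow. Cells labelled as bone marrow mesenchymal stromal cells were sorted as DsRed positive and negative for CD45, Ter119 and CD31. All libraries share this genotype, age and sort, and the reporter selects whatever cells transcribe Cxcl12 and lack those 3 surface markers. Poly(A) RNA was sequenced directly (Input, 2 libraries), after binding to beads with IgG as background control (IgG, 2 libraries), or after binding to beads with an antibody to N6-methyladenosine (m6A), a methylated adenosine found inside messenger RNA (anti-m6A, 2 libraries). Nothing in the labels ties the replicates to separate animals or separate pull-downs. The p-values therefore describe how far these libraries spread, and that spread may be technical.

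A Rab protein is a switch. Bound to GTP it recruits effectors such as tethers and motors to a membrane, and exchange factors load the GTP. GTPase activating proteins, most with a TBC domain, end the active state, and GDP dissociation inhibitors carry the prenylated protein through the cytosol. Stromal cells secrete collagen and cytokines and take up and recycle their receptors, work that passes through the compartments the Rabs mark.

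The antibody recognises a modified base that is known to occur often in short motifs of the type GGACU. In the GENCODE M21 transcripts used here, 1 for each gene, GGACT (its DNA spelling, searched on the sense strand only) was found in the transcripts of 39 of the 43 Rab genes that could be tested, or 90.7%, and of 91.6% of the 10324 tested genes that have a coding transcript. In coding sequence alone it was found in 22 of the 43, or 51.2%, against 75.4%, and the median coding length was 648 bases against 1312.5. Such a match is a description of letters and does not show a methylated base. In 7 Rab genes the match lies near the start of the coding sequence inside GGGGACTC, in the stretch that codes for the phosphate-binding loop of the GTPase. The octamer, which contains GGACT, was found in the coding sequence of 8 of 59 Rab genes (13.6%) and of 3.13% of the 20645 genes with a coding transcript; the other member is Rab44. The 7 sequences are shown to let the shared letters be read. GGACT is in capitals with up to 30 coding bases on each side, all from coding exons.
Rab19: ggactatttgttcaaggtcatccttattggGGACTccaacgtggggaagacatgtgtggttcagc
Rab15: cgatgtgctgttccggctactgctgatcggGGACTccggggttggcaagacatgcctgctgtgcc
Rab8a: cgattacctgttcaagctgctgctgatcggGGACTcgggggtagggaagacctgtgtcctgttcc
Rab10: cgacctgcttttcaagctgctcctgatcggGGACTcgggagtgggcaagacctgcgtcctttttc
Rab13: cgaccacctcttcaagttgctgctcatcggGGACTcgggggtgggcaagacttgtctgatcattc
Rab11b: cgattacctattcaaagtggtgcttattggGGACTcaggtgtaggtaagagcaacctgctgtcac
Rab7: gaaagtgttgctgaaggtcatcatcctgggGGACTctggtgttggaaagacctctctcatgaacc
On GRCm38 these stand at chr6:39383961-39384025 (+) for Rab19, chr12:76822239-76822303 (-) for Rab15, chr8:72161373-72161437 (+) for Rab8a, chr12:3309337-3309401 (-) for Rab10 and chr3:90220913-90220977 (+) for Rab13. Those of Rab11b, chr17:33749930-33760239 (-), and Rab7, chr6:88012408-88013676 (-), are joined across an intron. Against Input, Rab19 was called higher in anti-m6A, Rab15 lower, and the other 5 were not called.

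Further genes with called changes against Input have a coding match that is not in that loop. Compared with Input, Rab2a, Rab24, Rab22a and Rab33a were higher and Rab12 and Rab28 lower in anti-m6A. Among all called Rab genes, the coding sequence held the motif in 5 of the 8 higher and 4 of the 8 lower. The motif was thus present in both directions. Sequences from both directions are those of Rab2a, Rab24, Rab12 and Rab28.
Rab2a: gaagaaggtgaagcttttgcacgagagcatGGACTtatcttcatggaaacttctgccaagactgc
Rab24: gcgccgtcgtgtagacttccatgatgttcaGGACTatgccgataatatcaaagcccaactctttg
Rab12: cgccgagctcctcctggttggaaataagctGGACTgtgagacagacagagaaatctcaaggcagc
Rab28: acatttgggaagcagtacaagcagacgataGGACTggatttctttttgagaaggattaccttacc
They stand at chr4:8582413-8582477 (+) for Rab2a, chr13:55320533-55320788 (-, joined across an intron) for Rab24, chr17:66498030-66498094 (-) for Rab12 and chr5:41703440-41703504 (-) for Rab28.

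The deposited counts summed to 7125578 and 9493391 in Input, 2487148 and 1278735 in IgG and 6102070 and 5133237 in anti-m6A. A chosen list of 14 stromal markers includes Cxcl12, the only one of them that the sort used. All 14 had counts in both Input libraries. They made up 1.51% and 1.40% of the counts there, 0.506% and 0.547% in IgG and 0.523% and 0.511% in anti-m6A. Ptprc, which encodes the excluded CD45, was at 0 in every library, and Pecam1, which encodes the excluded CD31, had 92 and 69 counts in Input, 0 and 0 in IgG and 1 and 0 in anti-m6A. The 19 blood markers made up 0.0763% to 0.115% of the counts in the Input and anti-m6A libraries and 0.680% to 0.695% in IgG. Of the 19, 10 and 12 had a count in Input, 9 and 9 in IgG and 10 and 11 in anti-m6A. Elane, Cd79a and Ptprc were at 0 throughout. Globin transcripts were present in every library: Hba-a1 had 1511 and 1672 counts in Input, 2189 and 1218 in IgG and 1422 and 1399 in anti-m6A. For Hbb-bs these were 971 and 2987, 3861 and 2302, and 2178 and 2034. The 16 liver transcripts made up 0.0190% and 0.226% in Input, 2.58% and 2.76% in IgG and 0.0994% and 0.103% in anti-m6A. The 9 endothelial markers made up 0.00988% or less in every library. The part of these other cells in the results below was not tested, and in bulk RNA fewer cells of a type and less RNA per cell cannot be told apart.

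Rab transcripts took 0.402% and 0.369% of all counts in Input, 0.0728% and 0.0688% in IgG and 0.330% and 0.332% in anti-m6A. The exact 95% intervals, which cover counting error only because the reads were amplified without molecular identifiers, were 0.397 to 0.407 and 0.365 to 0.373 for Input, 0.0695 to 0.0762 and 0.0643 to 0.0735 for IgG, and 0.326 to 0.335 and 0.327 to 0.337 for anti-m6A. Both IgG libraries were thus below the other 4. Of the 59 genes, 37 and 42 had a count in the Input libraries, 14 and 8 in IgG and 47 and 47 in anti-m6A. At 0 everywhere were Rab17 and Rab25, known from epithelia, Rab27a, Rab36, Rab39, Rab44, Rab7b and Rab9b. A further 8 had counts but too few libraries with enough of them to be tested (Rab3a, Rab3b, Rab3c, Rab6b, Rab26, Rab38, Rab39b and Rab42), and 43 passed the filter on low counts. Passing it requires counts in at least 1 group, so the 43 are not all the Rab genes.

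Levels are given as counts and as CPM, counts scaled to 1e+06 of the library size after TMM scaling. The 8 members with the most Input CPM were Rab24, Rab11a, Rab18, Rab14, Rab2a, Rab4b, Rab34 and Rab8a. Rab24, linked to autophagy, had 2442 and 2517 counts in Input, 0 and 0 in IgG and 3045 and 2686 in anti-m6A. Rab11a, the Rab of recycling endosomes, had 1994 and 2403 in Input, 0 and 0 in IgG and 1351 and 1227 in anti-m6A. Both were seen in all Input and anti-m6A libraries and in neither IgG library. Rab14, which acts between the Golgi and endosomes, had 1668 and 2365 counts in Input, 15 and 2 in IgG and 1082 and 911 in anti-m6A. Rab4b, a Rab of fast recycling, had 1422 and 2526 in Input, 189 and 55 in IgG and 841 and 750 in anti-m6A. Rab34, which places lysosomes and acts in cilium formation, had 2006 and 1810 in Input, 0 and 0 in IgG and 1501 and 1105 in anti-m6A. In these 3 genes the Input and anti-m6A libraries all stood above both IgG libraries in CPM. Rab8a, which carries vesicles to the plasma membrane and cilium, had 1966 and 1444 counts in Input, 1 and 0 in IgG and 938 and 698 in anti-m6A. In CPM, Rab8a stood at 186 ± 65.5 (SD, n = 2) in Input and 185 ± 13.1 (SD, n = 2) in anti-m6A, so these groups overlapped.

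Genes were compared with each other only per transcript length. On CPM per kilobase, the Input levels of Rab24 were 247 and 209, those of Rab4b 141 and 206, those of Rab9 124 and 126, and those of Rab34 141 and 104. Rab24 was above the others in both Input libraries, narrowly over Rab4b in the second. Rab4b was above Rab9 and Rab34 in both, narrowly over Rab34 in the first, and Rab9 and Rab34 changed order between the libraries. Per kilobase in anti-m6A, Rab24 stood at 541 and 580, Rab2a at 315 and 362 and Rab13 at 256 and 288, which were the 3 highest in both group means and single libraries without overlap among them.

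**Figure D1:**
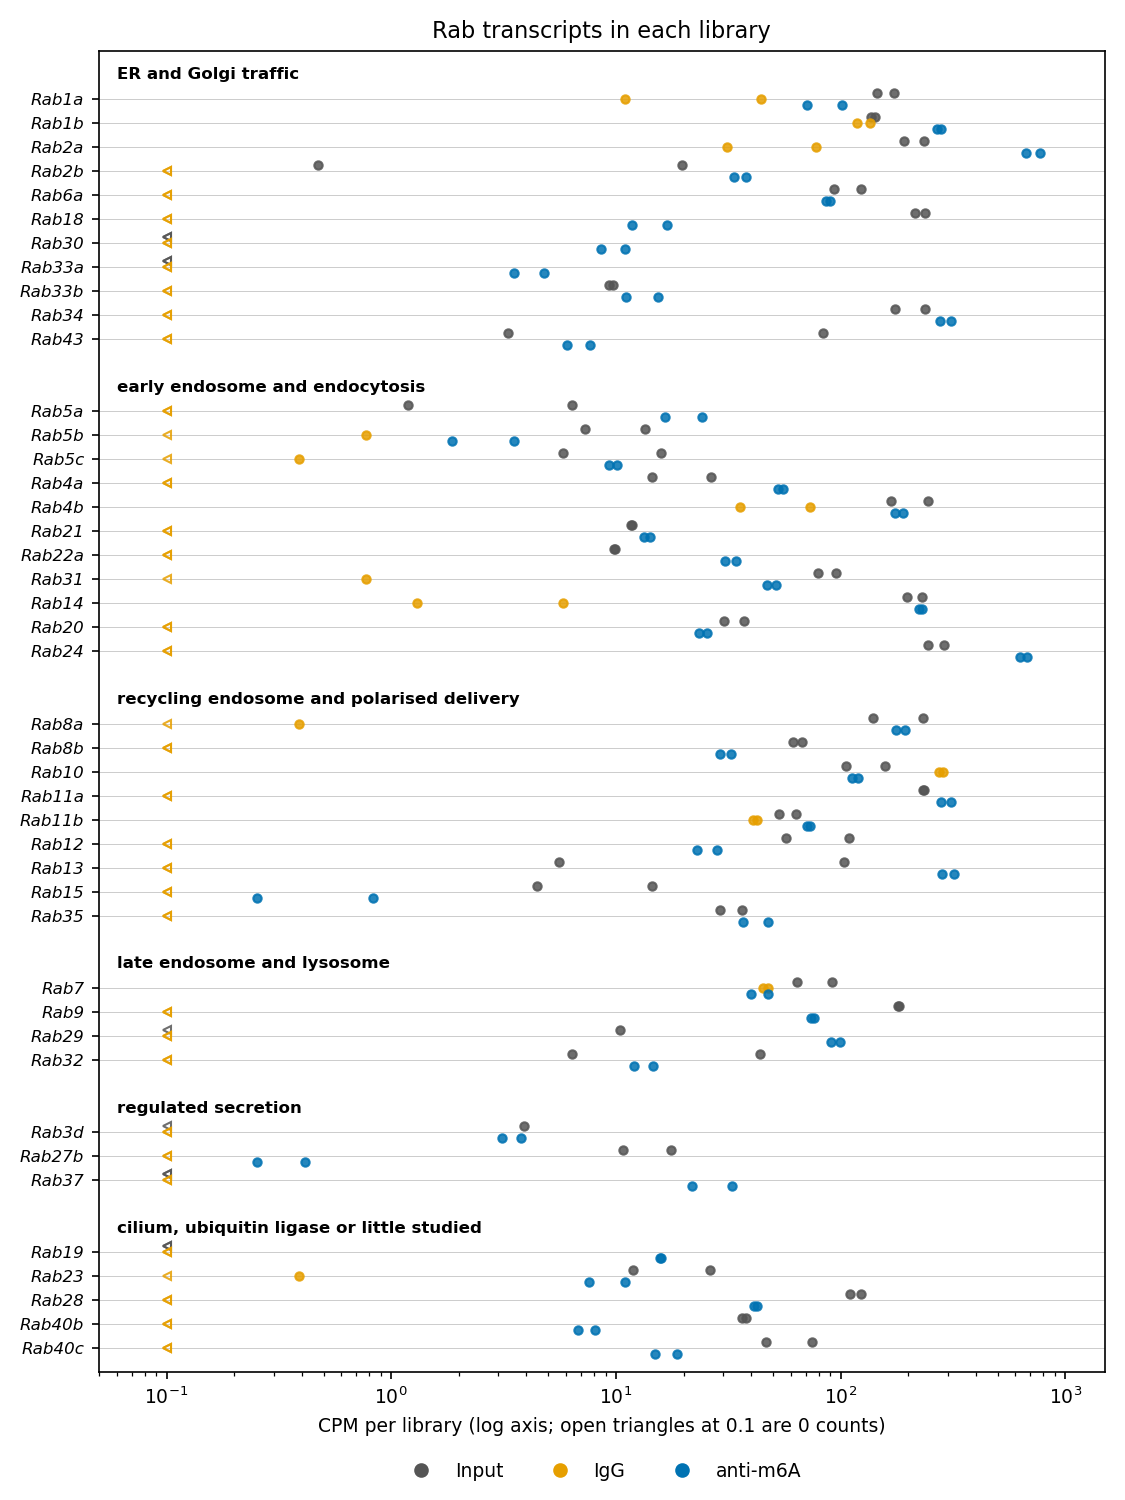
Level of the 43 tested Rab genes in each of the 6 libraries, in CPM on a log axis. Genes are grouped by compartment as in the chosen lists. Filled points are libraries with counts and open triangles at 0.1 are libraries with 0 counts; 30 of the 43 rows have both IgG triangles, and Rab10 is the gene whose IgG points lie to the right of all others in its row.

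Replicates of the pull-down were closer to each other than those of Input. For members with 20 or more counts summed over the pair, the median distance between replicates on the log2 scale was 0.16 in anti-m6A (41 members), 0.19 in IgG (7 members) and 0.51 in Input (41 members). Over all genes it was 0.19, 0.34 and 0.74. Distances were taken on log2(CPM + 0.5). In Input some members differed widely. Rab43, a Golgi Rab, had 28 and 863 counts in Input, and Rab13, a Rab of tight junctions and the cell surface, had 47 and 1073. Rab2b had 4 and 204, and Rab29, which acts at the Golgi and stressed lysosomes, had 0 and 107. Rab3b and Rab3c, Rabs of secretory granules, had 0 in the first Input library and 114 and 122 in the second, and 0 in all other libraries. All 6 were higher in the second Input library, which also held the larger share of liver transcripts, 0.226% against 0.0190%; the part of this in the counts was not tested. Rab32, of lysosome-related organelles, went the other way with 372 and 66.

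Anti-m6A was set against IgG to see what the specific antibody held over background. Of the 43 tested Rab genes, 35 were higher in anti-m6A and 1 was lower at an adjusted p of 0.05 by edgeR's quasi-likelihood test. Over all 11281 genes tested, 73.1% were higher and 8.31% were lower. The median log2 change was 9.18 over the Rab genes and 8.48 over all genes. It was 3.72 over the Rab genes once those at 0 in a group were set to the smallest fold that 3 counts per library allow. Of the 35, 26 had no count in either IgG library. Rab24 was at least 422-fold higher, Rab13 at least 194-fold, Rab34 and Rab11a at least 190-fold each, and the smallest of these bounds was at least 2.67-fold for Rab33a. Another 9 had IgG counts and were still higher, among them Rab2a at a difference of 3.72 ± 0.49 on the log2 scale (SE; edgeR adjusted p = 0.0017), Rab14 at 5.89 ± 0.64 and Rab1b at 1.11 ± 0.20. The not called members were Rab1a, Rab3d, Rab5b, Rab7, Rab15, Rab27b and Rab43. With only the 2 groups compared in the fit, Rab1a, Rab3d and Rab43 were called higher. Rab1a and Rab43 were also called higher by DESeq2's Wald test, and Rab1a with DESeq2 size factors in the edgeR fit. Leaving out either IgG library ended the calls of Rab11b, Rab29 and Rab2b, and leaving out either anti-m6A library those of Rab11b, Rab1b and Rab33a.

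Rab10, which delivers vesicles to the plasma membrane and tubulates the endoplasmic reticulum (ER), was the 1 member lower in anti-m6A than in IgG. It had 1338 and 1087 counts in Input, 706 and 439 in IgG and 576 and 448 in anti-m6A. In CPM this was 132 ± 37.4, 279 ± 8.2 and 116 ± 4.6 (SD, n = 2 each), so both IgG libraries stood above the 4 others, which overlapped. The log2 change was -1.26 ± 0.27 against IgG (edgeR adjusted p = 0.0077) and -0.18 ± 0.27 against Input (adjusted p = 0.61). Rab10 made up 39.0% and 49.9% of all Rab counts in the IgG libraries (exact 95% intervals 36.7 to 41.3 and 46.5 to 53.2), 4.67% and 3.10% in Input and 2.86% and 2.63% in anti-m6A. The call against IgG was lost without either anti-m6A library. An antisense gene, Rab10os, overlaps 143 bases of the 3513-base Rab10 transcript. It had 60 and 38 counts in Input, 0 and 0 in IgG and 276 and 313 in anti-m6A. Its part in the Rab10 counts was not tested.

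Anti-m6A was set against Input to see which transcripts formed a larger or smaller share of the bound RNA than of the RNA offered. Of 43 Rab genes, 8 were higher and 8 were lower by edgeR's test, against 28% and 20.5% of all genes tested. The median log2 change was -0.01 over the Rab genes and 0.18 over all. The same 8 higher genes were also called higher than both IgG and Input, a call that 23.6% of all genes tested received. Of these 8, Rab19, Rab30, Rab33a and Rab37 had 0 counts in Input and IgG and passed the filter only through their anti-m6A counts. Their calls against IgG and against Input rest on the same anti-m6A counts, so the joint call is no added support. Without the first anti-m6A library 0 members and without the second 1 were called higher than both by edgeR. The sentences below follow the compartments, and no compartment was tested as a set.

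Among the 11 tested Rabs of the ER and Golgi, 4 were higher and 1 was lower, beside 28% and 20.5% of all genes tested. Rab2a (chr4:8535644-8607778), which acts in traffic between the ER and Golgi, had 1623 and 2417 counts in Input, 201 and 48 in IgG and 3239 and 3065 in anti-m6A. In CPM it stood at 213 ± 29.99 in Input against 722 ± 71.3 in anti-m6A (SD, n = 2), a difference of 1.76 ± 0.45 on the log2 scale (SE; edgeR adjusted p = 0.027). Both anti-m6A libraries were above both Input libraries, and IgG was below them. Rab1b (chr19:5099205-5107072), required for export from the ER, had 1197 and 1404 counts in Input, 350 and 183 in IgG and 1356 and 1065 in anti-m6A. Its CPM was 139 ± 3.9 in Input against 275 ± 9.0 in anti-m6A (SD, n = 2), a difference of 0.98 ± 0.20 on the log2 scale (SE; edgeR adjusted p = 0.014). The groups did not overlap in CPM, although the counts did, because the anti-m6A libraries were scaled to a smaller size.

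Rab30 (chr7:92741603-92844535), a Golgi Rab, had 0 and 0 counts in Input and IgG and 53 and 34 in anti-m6A, at least 30.3-fold higher than Input. Rab33a (chrX:48519285-48530232), which binds an autophagy factor at the Golgi, had 0 and 0 in Input and IgG and 23 and 14 in anti-m6A, at least 12.8-fold higher. Neither was seen outside anti-m6A. Rab18, a Rab of the ER and lipid droplets, had 1806 and 2449 counts in Input, 0 and 0 in IgG and 81 and 47 in anti-m6A. Its CPM was 226 ± 16.9 in Input against 14.3 ± 3.5 in anti-m6A (SD, n = 2), a difference of -3.97 ± 0.35 on the log2 scale (SE; edgeR adjusted p = 0.0072). Input stood far above anti-m6A, and anti-m6A above the IgG floor, so Rab18 was also at least 9.23-fold higher in anti-m6A than in IgG.

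Among the 11 tested Rabs of early endosomes and endocytosis, 2 were higher, beside 28% of all genes tested. Rab24 (chr13:55319743-55321946) went from 267 ± 31.7 CPM in Input to 654 ± 32.2 CPM in anti-m6A (SD, n = 2). The difference was 1.295 ± 0.214 on the log2 scale (SE, edgeR adjusted p = 0.012). The chosen lists placed Rab24 here, although it is linked to autophagy. Of its 1168 transcript bases, 775 overlap Prelid1 on the other strand. Rab22a (chr2:173659760-173707343), which acts in sorting from early endosomes, had 83 and 102 counts in Input, 0 and 0 in IgG and 148 and 136 in anti-m6A. Its CPM was 9.86 ± 0.051 in Input against 32.5 ± 2.5 in anti-m6A (SD, n = 2), a difference of 1.72 ± 0.42 on the log2 scale (SE; edgeR adjusted p = 0.032). In both genes the anti-m6A libraries stood above the Input libraries without overlap. The classic early endosome Rabs were not called: the log2 change was 2.41 ± 0.94 for Rab5a, -1.94 ± 0.79 for Rab5b and -0.16 ± 0.70 for Rab5c. Whether these 3 differ from each other was not tested.

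Among the 9 tested Rabs of recycling and polarised delivery, 2 were lower, beside 20.5% of all genes tested. Rab12 (chr17:66494512-66519729), which sends receptors from recycling endosomes to lysosomes, had 482 and 1124 counts in Input, 0 and 0 in IgG and 136 and 91 in anti-m6A, a difference of -1.70 ± 0.46 on the log2 scale (SE; edgeR adjusted p = 0.043). Rab15 (chr12:76797960-76822908), an endosomal Rab best known from neurons, had 122 and 46 counts in Input, 0 and 0 in IgG and 4 and 1 in anti-m6A, a difference of -4.03 ± 0.96 on the log2 scale (SE; edgeR adjusted p = 0.030). In both, Input stood above anti-m6A without overlap. Rab15 passed the filter on low counts only through its Input counts. Rab13 had 1368 and 1263 counts in anti-m6A and 0 and 0 in IgG, and its log2 change against Input, 2.46 ± 1.36, did not pass the test (edgeR adjusted p = 0.21).

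Of the 4 tested Rabs of late endosomes and lysosomes, Rab9 was lower, as were 20.5% of all genes tested. Rab9 (chrX:166457253-166479867), which returns mannose 6-phosphate receptors to the Golgi, had 1522 and 1872 counts in Input, 0 and 0 in IgG and 367 and 294 in anti-m6A. Its CPM was 181 ± 1.1 in Input against 75.1 ± 1.4 in anti-m6A (SD, n = 2), a difference of -1.27 ± 0.25 on the log2 scale (SE; edgeR adjusted p = 0.018). Replicates differed little beside the gap between the groups. Rab7, the Rab of late endosomes and lysosome fusion, had 775 and 662 counts in Input, 117 and 73 in IgG and 192 and 188 in anti-m6A, and its log2 change against Input was -0.84 ± 0.30 (edgeR adjusted p = 0.068). Its CPM in anti-m6A, 43.6 ± 5.4, overlapped that in IgG, 46.3 ± 1.5 (SD, n = 2).

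Among the 3 tested Rabs of regulated secretion, 1 was higher and 1 was lower, beside 28% and 20.5% of all genes tested. Rab37 (chr11:115091431-115162236), found on secretory granules, had 0 and 0 counts in Input and IgG and 105 and 130 in anti-m6A, at least 84.4-fold higher than Input. Rab27b, which docks secretory granules and exosome-bearing bodies, had 148 and 111 counts in Input, 0 and 0 in IgG and 2 and 1 in anti-m6A. The fitted log2 change was -5.29 ± 0.64 (SE, edgeR adjusted p = 0.0072). By counts pooled over both libraries of a group and scaled by their summed library sizes, Rab27b was 40.4-fold lower. This ratio has a 95% counting interval of 13.7 to 197 because it rests on 3 counts. Each was near or at 0 in the group where it was low, and passed the filter only through the group where it was high.

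Of the 5 Rabs of the cilium, of ubiquitin ligases or with little known function, 1 was higher and 3 were lower. Over all genes tested these shares were 28% and 20.5%. Rab19 (chr6:39381175-39390380), linked to cilium growth, had 0 and 0 counts in Input and IgG and 76 and 63 in anti-m6A, at least 49.0-fold higher than Input. Rab28 (chr5:41624976-41708157), a ciliary Rab, had 1043 and 1139 counts in Input, 0 and 0 in IgG and 205 and 163 in anti-m6A, a difference of -1.48 ± 0.28 on the log2 scale (SE; edgeR adjusted p = 0.016). Rab19 was seen only in anti-m6A among these 3 groups, and Rab28 was highest in Input. Rab40b (chr11:121356125-121388251) and Rab40c (chr17:25882114-25919727) carry a SOCS box that joins them to a cullin ubiquitin ligase. Rab40b had 322 and 374 counts in Input, 0 and 0 in IgG and 39 and 27 in anti-m6A, a difference of -2.32 ± 0.43 on the log2 scale (SE; edgeR adjusted p = 0.016). Rab40c had 632 and 481 in Input, 0 and 0 in IgG and 90 and 59 in anti-m6A, a difference of -1.85 ± 0.44 on the log2 scale (SE; edgeR adjusted p = 0.030). Both paralogues were lower in both anti-m6A libraries than in either Input library.

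**Figure D2:**
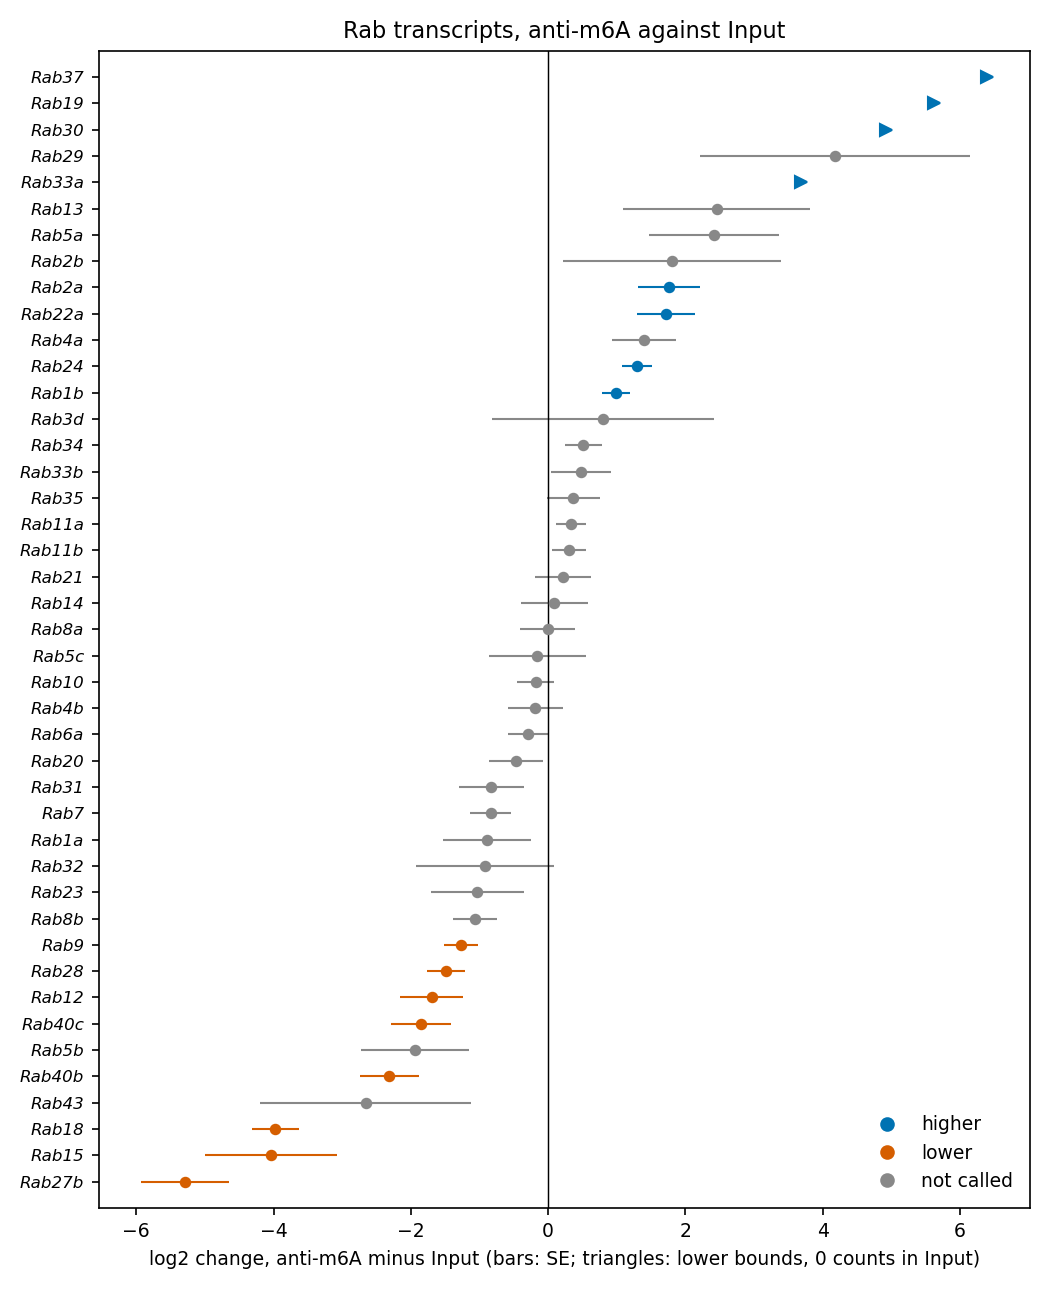
Log2 change of the 43 tested Rab genes in anti-m6A against Input, with genes in order of the change and bars of 1 SE from the edgeR fit. Triangles are lower bounds for the 4 genes with 0 counts in Input; blue marks the 8 genes called higher and orange the 8 called lower, and 27 grey genes lie between or have wide bars such as Rab29 and Rab43.

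These counts depend on the libraries and the scaling. Without either anti-m6A library Rab1b, Rab2a, Rab22a, Rab24 and Rab33a were no longer called higher (3 members left), and of the lower genes Rab18 alone was still called. Without the first or the second Input library 15 and 14 members were called higher, and without the second 14 were called lower. With DESeq2 size factors in place of TMM the calls of Rab1b and Rab22a ended, and with library totals those of Rab1b, Rab22a and Rab24; the median log2 change of all genes was then -0.22 and -0.32 in place of 0.18, and the share of called genes that were higher went from 57.8% to 47.6% and 45.5%.

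In the comparison of IgG with Input, which shows what the background antibody held, 32 of the 43 Rab genes were lower in IgG and Rab10 was higher by edgeR's test. Of all genes tested, 61.5% were lower and 9.89% were higher. The median log2 change was -8.71 over the Rab genes, -4.44 with genes at 0 set to their bound, and -8.23 over all genes. The 8 named by the largest fitted change were Rab24, Rab11a, Rab18, Rab34, Rab9, Rab28, Rab6a and Rab12, all at 0 in both IgG libraries, so their order rests on fitted values and they are not shown to be the largest decreases. Rab24 was at least 172-fold lower, Rab11a at least 151-fold, Rab18 at least 145-fold, Rab34 at least 133-fold and Rab9 at least 117-fold. Rab28 was at least 75.3-fold lower, Rab12 at least 53.5-fold, and Rab6a, a Golgi Rab with 789 and 1267 counts in Input and 415 and 356 in anti-m6A, at least 69.7-fold. Members with a few IgG counts gave ratios beyond these bounds: Rab8a was 751-fold lower (95% counting interval 135 to 29656, on 1 count) and Rab31, a Rab of the Golgi and endosomes, 179-fold lower (49.4 to 1476, on 2 counts). The lowest Input count among the 8 was 482 (Rab12), so each bound lies far above a ratio of 1.

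The 8 members with counts in both IgG libraries were Rab10, Rab1b, Rab4b, Rab2a, Rab11b, Rab7, Rab1a and Rab14. Rab10 alone was higher than in Input, with a difference of 1.08 ± 0.27 on the log2 scale (SE; edgeR adjusted p = 0.015), and this call was lost without either IgG or either anti-m6A library and with DESeq2 size factors (log2 change 0.60, edgeR adjusted p = 0.15). Rab1b, with a change of -0.13 ± 0.20, Rab11b at -0.48 ± 0.25 and Rab7 at -0.75 ± 0.30 were not called. Rab1a, the paralogue of Rab1b in ER export, had 1462 and 1502 counts in Input, 115 and 17 in IgG and 488 and 280 in anti-m6A, and was lower in IgG than in Input at -2.50 ± 0.68 (edgeR adjusted p = 0.020). Its IgG replicates differed by 1.96 on log2(CPM + 0.5), the most among the 7 members with 20 or more counts over the IgG pair. Leaving out either IgG library ended the calls of Rab13, Rab43 and Rab5a as lower in IgG. The IgG libraries also held the larger shares of the liver and blood transcripts given above, and the part of those cells in the Rab counts was not tested.

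The regulators of Rabs were called in both directions in anti-m6A against Input, where 28% of all genes tested were higher and 20.5% were lower. Of 7 tested genes for prenylation and GDP dissociation, 2 were higher and 3 lower. Rabac1, which encodes a membrane acceptor of prenylated Rabs, had 1537 and 3876 counts in Input, 1621 and 890 in IgG and 4047 and 3886 in anti-m6A, a log2 change of 1.70 ± 0.37 (edgeR adjusted p = 0.017). Its CPM (SD, n = 2 each) was 279 ± 137 for Input, against 602 ± 35.3 with IgG beads and 910 ± 99.2 with anti-m6A beads. It was also called higher in IgG than in Input (log2 change 1.11, edgeR adjusted p = 0.041) and was not called against IgG (0.60, adjusted p = 0.18). Rabggta, the alpha subunit of the Rab prenyl transferase, had 3 and 2 counts in Input and 26 and 21 in anti-m6A, at 4.19 ± 0.48. Its partner Rabggtb, the beta subunit, had 385 and 935 in Input and 90 and 45 in anti-m6A, at -2.18 ± 0.56. The 2 subunits of 1 enzyme were thus called in opposite directions, although Rabggta was near 0 in Input, at a mean of 0.27 CPM. Chm, the Rab escort protein, was lower at -1.86 ± 0.44.

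Of 36 tested exchange factors, 11 were higher and 12 were lower. In these regulator lists, genes at 0 in Input passed the filter on low counts only through pull-down counts. For those also at 0 in IgG these were anti-m6A counts alone, so their calls are no independent support. Hps1 (part of the exchange factor for Rab32 and Rab38), Trappc2 (a subunit of the TRAPP complex that activates Rab1) and Dennd2c were at 0 in Input and IgG and were at least 27.9-fold, 25.5-fold and 20.2-fold higher in anti-m6A. Rab3il1, an exchange factor for Rab8, had 0 and 3 counts in Input and 211 and 138 in anti-m6A, a ratio of 248 with a 95% counting interval of 84.3 to 1210 that lies above those 3 bounds. Mon1a, part of the exchange factor of Rab7, had 746 and 490 counts in Input and 13 and 8 in anti-m6A, a log2 change of -4.83 ± 0.58, and Dennd5a was lower at -3.68 ± 0.33. Of 23 tested TBC proteins, 6 were higher, among them Rabgap1l, Tbc1d31 and Tbc1d8 (at 0 in Input and at least 38.9-fold, 21.3-fold and 10.3-fold higher) and Tbc1d20, which had 3 and 3 counts in Input and 100 and 73 in anti-m6A (5.83 ± 0.53). The 5 lower included Rabgap1 (-4.11 ± 0.55), Tbc1d24 (-2.95 ± 0.76) and Tbc1d13 (-2.67 ± 0.66). Rabgap1 and its paralogue Rabgap1l were in opposite directions.

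Of 38 tested effectors, 4 were higher and 9 were lower. Ehbp1 and Plekhm2 were at 0 in Input, passed the filter only through pull-down counts, and were at least 23.2-fold and 17.6-fold higher. Gcc2, a golgin, was higher at 1.46 ± 0.42. Bicdl1, an adaptor of Rab6 to dynein, had 166 and 88 counts in Input and 1 and 1 in anti-m6A, and the golgin Golga2 and the recycling endosome protein Micall1 were lower at -4.17 ± 0.86 and -4.15 ± 0.70. Dennd5a stands in both the exchange factor and the effector list. Against IgG, 5 of the 7 prenylation genes and 32 of the 36 exchange factors were higher. So were 20 of the 23 TBC proteins and 29 of the 38 effectors, beside 73.1% of all genes tested. These comparisons share their anti-m6A libraries and are given side by side only.

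**Figure D3:**
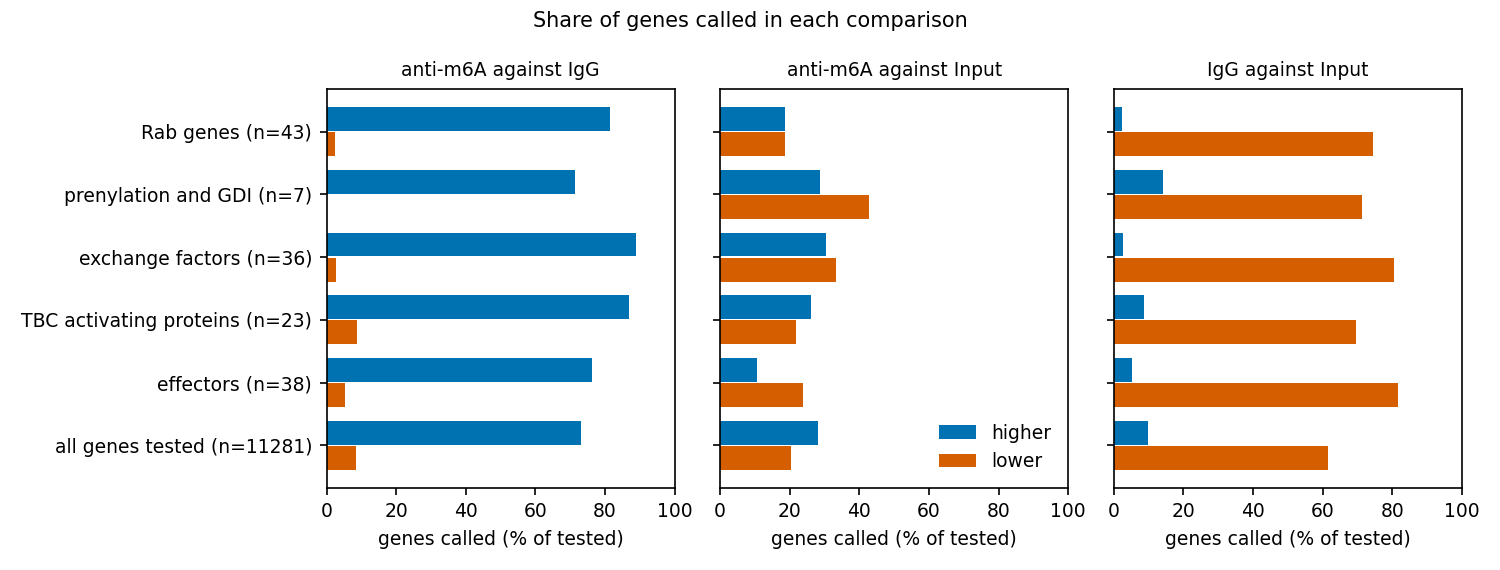
Share of the tested genes called higher (blue) or lower (orange) by edgeR at an adjusted p of 0.05, in percent, for the Rab genes, 4 lists of their regulators and all 11281 genes, in each of the 3 comparisons. In anti-m6A against Input the Rab genes have bars of equal length (8 and 8 of 43), and in IgG against Input the lower bars are the longer ones in every set.

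Transcript length and motif matches are given by call, with no test. The median transcript length was 2023 bases over the 8 higher genes, 2258 over the 8 lower, 2906 over the 27 not called and 2878.5 over all tested genes. GGACT was found in the transcripts of 7 of the 8 higher and 7 of the 8 lower genes; the tested members without it were Rab1a, Rab1b, Rab9 and Rab14. Across the 43 genes, which share libraries and are not independent replicates, Spearman's rho with the log2 change against Input was -0.27 for transcript length, -0.29 for the length of the 3′ untranslated region and 0.15 for matches per kilobase. Of the 8 genes with counts in both IgG libraries 5 held the motif, and of the 30 tested genes at 0 in both IgG libraries 29 did. Over all tested genes with a coding transcript the share was 91.6%. The same split by IgG counts was not made over all genes, and a link of the motif with IgG counts was not tested.

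**Figure D4:**
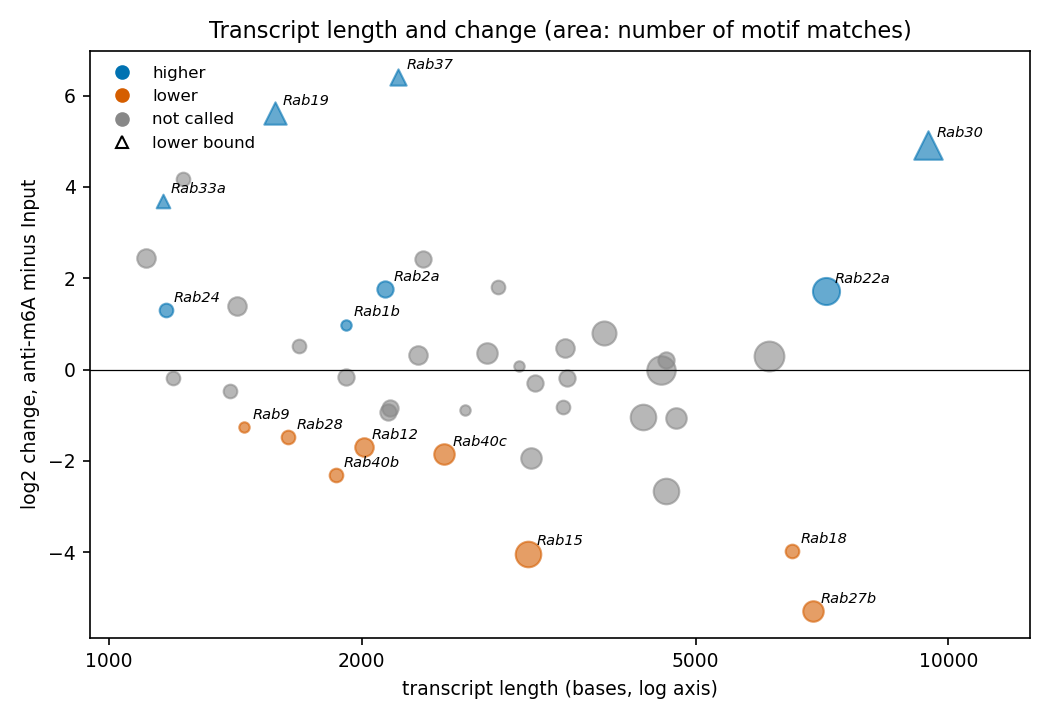
Transcript length (bases, log axis) of the 43 tested Rab genes against the log2 change in anti-m6A against Input, with the area of a symbol growing with the number of motif matches in the transcript. Triangles are lower bounds for genes at 0 in Input; named genes are those called, and they lie at short and long transcripts in both directions, from Rab33a and Rab9 to Rab30 and Rab27b.

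Counts of neighbouring and related genes bear on some of these values. The counts carry no strand, and 775 of the 1168 bases of the Rab24 transcript overlap Prelid1, a mitochondrial lipid carrier gene on the other strand. Prelid1 had 2587 and 4087 counts in Input, 0 and 0 in IgG and 1954 and 2040 in anti-m6A, so reads of the 2 genes cannot be told apart in the overlap. Rab6a shares 708 of 3214 bases with Mrpl48 on the other strand. Rab4b and Rab43 lie within readthrough transcripts on the same strand (1016 of 1192 and 4164 of 4605 bases). Between paralogues, coding identity was 76.1% between Rab1a and Rab1b, 74.3% between Rab2a and Rab2b and 74.6% between Rab40b and Rab40c. The longest stretch shared by any pair compared is shown, since reads within it fit both genes; it has 38 bases and lies in the coding sequence of both, at coding bases 307 to 344 of Rab1a and 298 to 335 of Rab1b.
Rab1a and Rab1b: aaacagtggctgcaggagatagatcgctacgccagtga
Rab1a, with a log2 change against Input of -0.89 ± 0.64, was not called, and Rab1b was higher at 0.98 ± 0.20; the difference between them was not tested.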

How the data were processed

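The deposited file holds raw counts, made by the authors, for each Entrez gene number in 6 libraries of poly(A) RNA, made by the Smart-seq2 method per the labels' protocols. Picard, featureCounts, edgeR 3.38.1 and the build mm10 are named in the submitters' processing notes, without role or order. Which aligner and annotation were used is not given in the sources used here. Symbols came from RefSeq GRCm38.p6 (25275 of 27179 numbers matched), and transcripts from GENCODE M21 (59 of 59 members).

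Counts were fitted in R 4.3.3 with edgeR 4.0.16 (glmQLFit and glmQLFTest, TMM scaling, limma 3.58.1) across all 6 libraries with 3 group means, after filterByExpr (minimum count 10, minimum total count 15), which kept 11281 genes and 3 residual degrees of freedom. Benjamini-Hochberg adjustment ran over all genes tested, and calls were made at 0.05. The call of higher than both other groups used the larger one-sided p. The SE is the log2 change divided by the square root of F. The script was tested on simulated data. A group with 0 counts in both libraries was set to 3 counts per library (0.355 and 0.291 CPM in Input, 1.16 and 1.94 in IgG, 0.622 and 0.756 in anti-m6A). Fitted values of such genes enter only medians, Spearman's rho and the order by which genes were named. Alternatives were DESeq2 1.42.0 (size factors and Wald test), library totals, other filters, left-out libraries, fits of 2 groups, summed pairs and a replicate block.

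The members, roles, marker and regulator lists, tests and naming rule were chosen with earlier results of these data known. Counts in all libraries are given for members called against Input or lower against IgG, the 8 with the most Input CPM and the 8 largest calls in IgG against Input, with the 3 largest calls per direction of each regulator list, some of which are not reported here; other members named were chosen after their values were seen. The GGGGACTC search was added after the motif windows were seen. The antibody protocol states no fragmentation, and counts per gene do not place a methylated base.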

Additional observations from a re-analysis of the deposited data

How the results depend on the processing

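No called change of a Rab gene reversed under any alternative run, while the median change against Input took either sign. Members higher in anti-m6A than in IgG numbered 35, and 5 with at least 10 counts in each library (7 members tested); the 1 lower became 0 with pull-down pairs summed and ranged from 0 to 1 with a library left out. Against Input, the 8 higher became 5 with library totals, 1 with at least 10 counts and 4 with pairs summed (leave-one-out 3 to 15), and the 8 lower became 1 with at least 10 counts, 1 with pairs summed and 15 by DESeq2's Wald test (leave-one-out 1 to 14). The 1 higher in IgG than in Input became 0 with DESeq2 size factors, at least 10 counts, 2 groups only, pairs summed and the Wald test (leave-one-out 0 to 1), and the 32 lower became 6 with at least 10 counts. The 8 higher than both became 4 with library totals, 0 with at least 10 counts and 0 with pairs summed (leave-one-out 0 to 15). The cause was not tested, except that the filter of 10 counts leaves 1757 genes. With an arm of 1 library, that library is assumed to vary like the other groups.

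The median log2 change against IgG, 9.18, was 8.95 with DESeq2 size factors, 8.82 with library totals, 8.30 with no filter, 1.45 with at least 10 counts, 8.47 with 2 groups, 9.73 with pairs summed and 7.26 by the Wald test (leave-one-out 8.87 to 9.37). Against Input, -0.01, it was -0.47 with size factors, -0.57 with totals, -0.75 with at least 10 counts, 0.11 with 2 groups and -0.47 by the Wald test (leave-one-out -0.083 to 0.209). For IgG against Input, -8.71, it was -8.91 with size factors, -7.87 with no filter, -1.65 with at least 10 counts, -8.90 with 2 groups, -9.26 with pairs summed and -7.22 by the Wald test (leave-one-out -9.12 to -7.58).

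The groups share replicate numbers, but with only 2 numbers these do not show a pairing. The correlation of replicate differences over 1589 genes was 0.20 between Input and IgG, 0.21 between Input and anti-m6A and 0.40 between IgG and anti-m6A. With the replicate number as a replicate block, 2 members were lower than Input, 0 were higher than both by edgeR (0 of all genes), and the median against Input was 0.057.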
